A study of Mus musculus with 6 samples.

Results

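A set of 10 genes of blood vessel growth was followed in bulk RNA labelled as that of neutrophils from Hepa1-6 tumours, Hepa1-6 being a mouse hepatoma cell line used as a model of hepatocellular carcinoma. They are the VEGF family ligand genes Vegfa, Vegfb, Vegfc and Pgf, the receptor genes Flt1, Kdr, Nrp1 and Nrp2, the prokineticin gene Prok2, and Hif1a, a subunit gene of hypoxia-inducible factor (HIF). They were chosen by name, and all 10 were among the 21959 genes of the table, matched through GENCODE M21 symbols. The series holds 3 libraries labelled GPR35 positive and 3 labelled GPR35 negative, GPR35 being a G protein-coupled receptor. All 6 are labelled as tumour-associated neutrophils. Strain, age, how cells were sorted, and whether a library came from 1 animal or from pooled ones are details not given in the sources used here. All p-values therefore measure only the spread between these libraries, which may be technical.

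VEGF ligands are secreted growth factors that bind receptor tyrosine kinases on endothelial cells, and hypoxia raises Vegfa through HIF. FLT1 binds VEGFA, VEGFB and placental growth factor, the product of Pgf, and KDR carries most of the VEGFA signal in endothelium. The neuropilins NRP1 and NRP2 are co-receptors that also bind class 3 semaphorins. PROK2, also called Bv8, is a secreted peptide with receptors of its own, and in mouse tumours it is known as an angiogenic product of neutrophils and other myeloid cells.

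Levels are FPKM, fragments per kilobase of exon scaled to the reads assigned in each library, and 15742744 to 18314104 reads were assigned per library. The markers went against that label in part, since those of liver or tumour cells summed to more than those of neutrophils in every library. The 13 hepatocyte and hepatoma markers summed to 16902 to 17322 FPKM in GPR35-positive and 25304 to 26737 FPKM in GPR35-negative libraries. The 10 neutrophil markers summed to 8930 to 9898 FPKM in GPR35-positive and 807 to 1045 FPKM in GPR35-negative libraries, and 10 macrophage markers to 931 to 961 FPKM in GPR35-positive and 35.8 to 49.3 FPKM in GPR35-negative libraries. Gpr35 itself was at 20.2 ± 1.89 FPKM in GPR35-positive and 1.57 ± 0.398 FPKM in GPR35-negative libraries (SD, n = 3 each). In such bulk libraries, fewer cells of a type and less RNA per cell cannot be told apart.

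Prok2 was the member that rose most, and the 4 VEGF family ligand genes moved in different directions. In GPR35-positive libraries Prok2, Pgf, Nrp1 and Hif1a were higher, and Vegfb, Vegfc and Nrp2 were lower, by limma on log2(FPKM + 1). Vegfa did not pass an adjusted p of 0.05. Flt1 and Kdr were under the filter of 1 FPKM in 3 libraries and were tested only without it. Thus 8 of the 10 members were tested, with 4 higher and 3 lower. Of the 10060 genes tested, 23.3% were higher and 45.5% lower, or 68.8% in either direction, so 33.9% of all calls were higher (55.2% with median-of-ratios scaling). Pgf and Nrp1 reached 1 FPKM only in GPR35-positive libraries, so they could pass the filter only through the group in which they were high. Without a filter all 10 were tested, with 6 higher and 3 lower, while of 19818 genes 17.4% were higher and 22.1% lower. The groups did not overlap in 9 of the 10 members, as in 48.7% of those 19818 genes and 72.5% of the 10060.

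**Figure D1:**
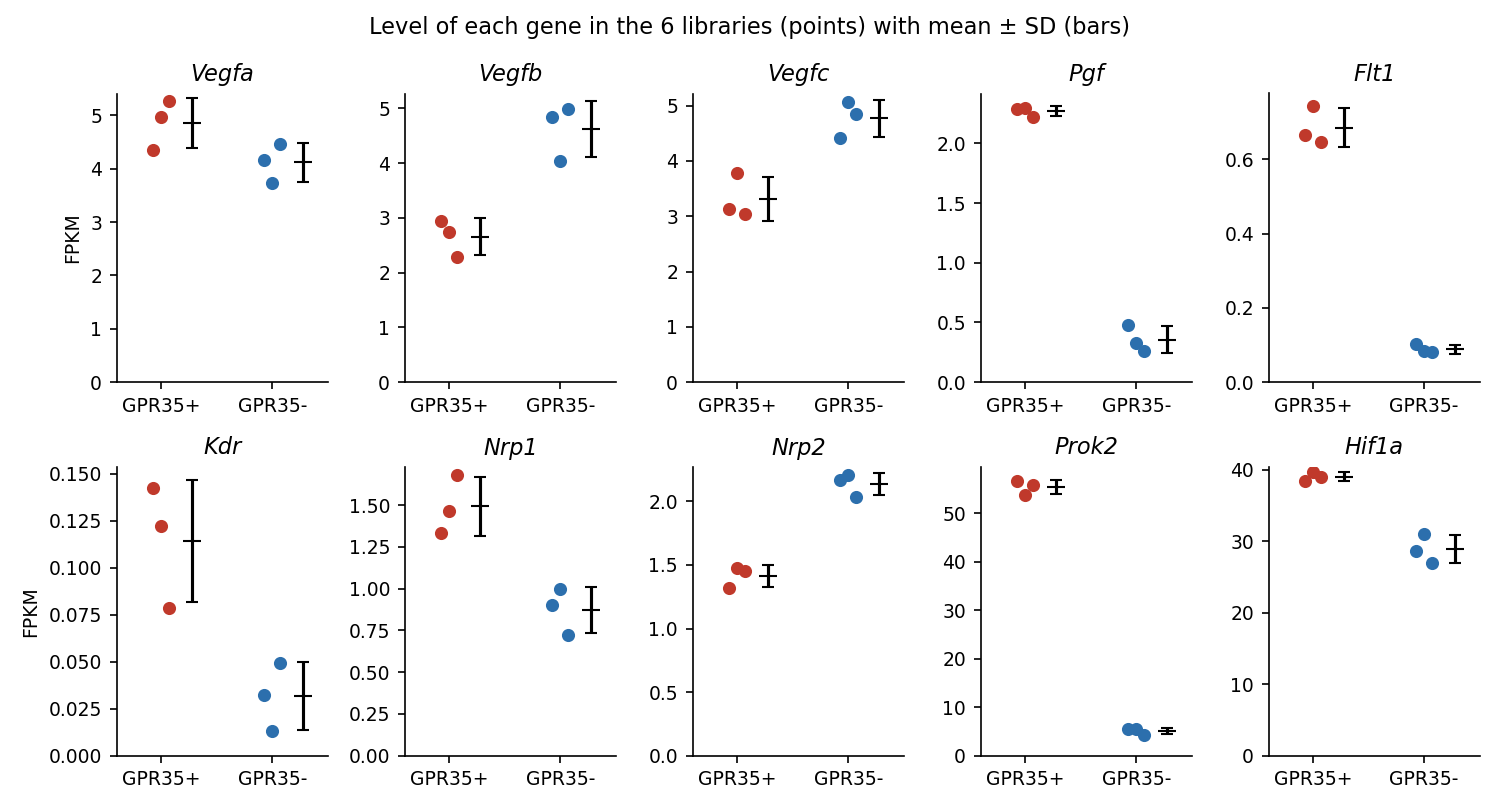
FPKM (y axis, from 0, a scale for each gene) of the 10 genes in 3 GPR35-positive (red, left) and 3 GPR35-negative (blue, right) libraries. Points are libraries and bars are the mean ± SD; the groups overlap only for Vegfa, and Prok2 sits at 53.9 to 56.7 FPKM in GPR35-positive and 4.31 to 5.57 FPKM in GPR35-negative libraries.

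The 250 bases before the RefSeq transcription start (GRCm38.p6) are shown for the member that rose most, Prok2, for Vegfa, whose groups overlapped, and for Vegfb, whose ratio was the lowest. They lie at chr6:99726393-99726642, chr17:46032378-46032627 and chr19:6987652-6987901, each read 5′ to 3′ on the minus strand, on which these genes lie. Capitals mark the letters ACGTG or GCGTG on either strand, the core of the element that HIF binds:

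Prok2: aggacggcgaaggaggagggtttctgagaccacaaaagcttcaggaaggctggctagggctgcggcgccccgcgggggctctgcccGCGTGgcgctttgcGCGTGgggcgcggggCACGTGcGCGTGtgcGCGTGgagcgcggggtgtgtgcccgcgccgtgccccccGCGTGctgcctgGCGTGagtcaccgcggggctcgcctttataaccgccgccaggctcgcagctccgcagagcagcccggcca

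Vegfa: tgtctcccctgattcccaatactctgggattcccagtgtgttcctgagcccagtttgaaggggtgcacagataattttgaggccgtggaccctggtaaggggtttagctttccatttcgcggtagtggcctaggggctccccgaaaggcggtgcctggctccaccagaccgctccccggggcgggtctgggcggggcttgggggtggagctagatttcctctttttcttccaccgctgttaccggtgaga

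Vegfb: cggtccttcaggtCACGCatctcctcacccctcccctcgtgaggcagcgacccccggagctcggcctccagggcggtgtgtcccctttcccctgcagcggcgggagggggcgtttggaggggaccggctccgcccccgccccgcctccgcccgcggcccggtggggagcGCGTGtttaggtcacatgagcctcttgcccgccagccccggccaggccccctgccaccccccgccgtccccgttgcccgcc

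Prok2 held 8 matches, 2 of which overlap in the palindrome CACGTG, Vegfb held 2 and this Vegfa window held 0. A second Vegfa window, before a start inside the gene (chr17:46025164-46025413), held 2. It is not printed because 218 of its bases lie in exons of Vegfa. Of 32851 promoter windows of this length, 38.6% held at least 1 match, and 27 windows, or 0.0822%, held 8 or more. The cut of 8 is the count of Prok2 itself, chosen after the data were seen, so that share is not a test. These windows were not matched for GC content. Among the 12 windows of the 10 members, 9 held a match, including the Hif1a window with 3, and 9 of the 10 members had at least 1. The letters are GC-rich and so were the windows, at 73.6% GC for Prok2, 59.2% for Vegfa and 76.4% for Vegfb. A STAT motif, TTCNNNGAA, was in 0 of the 12 windows and in 7.02% of all windows. Bases further upstream of a start were not searched, for Vegfa or any other member. A match describes these letters only, and binding was not measured.

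Prok2 was at 56.7, 53.9 and 55.8 FPKM in the GPR35-positive libraries, against 5.57, 5.42 and 4.31 FPKM in GPR35-negative ones. Every GPR35-positive library was far above every GPR35-negative one, and the means, 55.5 ± 1.46 FPKM in GPR35-positive and 5.10 ± 0.688 FPKM in GPR35-negative libraries (SD, n = 3 each), gave a ratio of 10.9. The log2 fold change was 3.22 (SE 0.09), at a limma adjusted p of 1.11e-09, and 92 of the 10060 genes tested rose further. The gene (ENSMUSG00000030069, chromosome 6, 99711299 to 99726392, minus strand) was covered by 1863, 1686 and 1958 reads in GPR35-positive and by 184, 176 and 130 reads in GPR35-negative libraries. The ratio of Prok2 lay among those of single neutrophil markers, which ran from 5.30 to 12.5 with a ratio of sums of 10.2. It lay below those of tested macrophage markers, from 11.5 to 35.6. Among these, Adgre1, Csf1r and Mrc1 reached 1 FPKM only in GPR35-positive libraries and so passed the filter through the group in which they were high. The ends of that range, Cd68 and C1qb, reached 1 FPKM in both groups. The part of cell composition in the rise of Prok2 was not tested.

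The genes around Prok2 were less uniform. Csf3r, the receptor gene for granulocyte colony-stimulating factor (G-CSF), which induces Prok2 in mouse myeloid cells, was at 78.3 ± 5.42 FPKM in GPR35-positive and 7.84 ± 1.33 FPKM in GPR35-negative libraries (SD, n = 3 each). The G-CSF gene Csf3 was at 5.63 ± 0.304 FPKM in GPR35-positive and 0.777 ± 0.0949 FPKM in GPR35-negative libraries. Jak2, a kinase that acts below the receptor, was at 23.8 ± 2.13 FPKM in GPR35-positive and 7.03 ± 0.335 FPKM in GPR35-negative libraries. The transcription factor gene Stat3 was at 45.7 ± 0.883 FPKM in GPR35-positive and 31.8 ± 1.16 FPKM in GPR35-negative libraries. Of the 5 G-CSF and STAT3 genes, 4 rose and 0 fell, where 23.3% of all genes tested rose. Csf3 reached 1 FPKM only in GPR35-positive libraries, so it passed the filter through the group in which it was high, and 3 of the other 4 rose. The median log2 fold change of all 5, Csf3 included, was 1.63, where that of all genes tested was −0.19. Socs3, a feedback inhibitor that STAT3 induces, did not pass, at 172 ± 34.3 FPKM in GPR35-positive and 175 ± 14.6 FPKM in GPR35-negative libraries (adjusted p = 0.798). The prokineticin receptor gene Prokr1 fell, at 1.15 ± 0.131 FPKM in GPR35-positive and 1.91 ± 0.121 FPKM in GPR35-negative libraries (log2 fold change −0.44, adjusted p = 0.000905). Prokr2 stayed under the filter, at 0.170 to 0.295 FPKM in GPR35-positive and 0.225 to 0.268 FPKM in GPR35-negative libraries, and Prok1 was listed at 0 in every library.

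Vegfa, the main angiogenic ligand and a HIF target, was at 4.35, 4.97 and 5.26 FPKM in the GPR35-positive libraries, against 4.15, 3.73 and 4.46 FPKM in GPR35-negative ones. The groups overlapped, since GPR35-positive replicate 1 lay below GPR35-negative replicate 3. The means were 4.86 ± 0.469 FPKM in GPR35-positive and 4.12 ± 0.366 FPKM in GPR35-negative libraries (SD, n = 3 each), a log2 fold change of 0.20 (SE 0.10), at a limma adjusted p of 0.0912. Vegfa (ENSMUSG00000023951, chromosome 17, 46016993 to 46032369, minus strand) was covered by 271 to 413 reads per library. Scaling by the median of ratios brought the median over all genes tested to −0.03, where it was −0.19 on the FPKM as deposited. With it Vegfa passed at a log2 fold change of 0.36 (adjusted p = 0.0107) and its groups no longer overlapped, at 4.63 to 5.67 in GPR35-positive and 3.48 to 4.20 in GPR35-negative libraries. Vegfa also passed without GPR35-positive replicate 1 (adjusted p = 0.0453), and its adjusted p ran from 0.0107 to 0.292 over all settings. The table gives 1 value per gene, so the splice forms of VEGFA, which differ in how they bind matrix, were not separated.

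Vegfb, a ligand of FLT1, was at 2.95, 2.75 and 2.28 FPKM in the GPR35-positive libraries, against 4.84, 4.04 and 4.99 FPKM in GPR35-negative ones. Every GPR35-positive library was the lower, and the log2 fold change was −0.62 (SE 0.10), at a limma adjusted p of 0.000477. Vegfc, the ligand of lymphatic growth through FLT4, was at 3.12, 3.78 and 3.03 FPKM in the GPR35-positive libraries, against 4.40, 5.06 and 4.85 FPKM in GPR35-negative ones. Its groups were also apart, with a log2 fold change of −0.42 (SE 0.10), at a limma adjusted p of 0.00293. With scaling by the median of ratios and no filter Vegfc missed the threshold (−0.27, adjusted p = 0.0726). The ratios of mean FPKM were 0.575 for Vegfb and 0.694 for Vegfc, beside 0.658 for the summed hepatocyte and hepatoma markers, whose tested members ran from 0.454 to 1.65. The part of those cells in the falls was not tested. The other lymphatic pair stayed under the filter: Vegfd was at 0.432 to 0.800 FPKM in GPR35-positive and 0.871 to 1.37 FPKM in GPR35-negative libraries, and its receptor gene Flt4 at 0.513 to 0.736 FPKM in GPR35-positive and 0.887 to 1.21 FPKM in GPR35-negative libraries. Both fell when tested without a filter (adjusted p = 0.0255 and 0.0172).

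Pgf, which encodes placental growth factor, a ligand of FLT1 but not of KDR, was at 2.29, 2.30 and 2.22 FPKM in the GPR35-positive libraries, against 0.479, 0.325 and 0.263 FPKM in GPR35-negative ones. The GPR35-positive libraries differed little among themselves and stood well above the others. The log2 fold change was 1.27 (SE 0.08), at a limma adjusted p of 3.26e-07 and the ratio of means 6.38. Pgf was covered by 341 reads over the 3 GPR35-positive libraries and 52 over the 3 GPR35-negative ones. From these reads, scaled for depth, the ratio was 6.32, with an exact 95% interval of 4.71 to 8.64 that covers counting error only.

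The 4 ligand genes differed more in their mixture than in their sum. Their levels added up to 12.7, 13.8 and 12.8 FPKM in GPR35-positive libraries and to 13.9, 13.2 and 14.6 FPKM in GPR35-negative ones, so the sums overlapped. Pgf made up 17.4 ± 0.687% of that sum in GPR35-positive and 2.58 ± 0.830% in GPR35-negative libraries (SD, n = 3 each). Vegfa made up 37.1 ± 3.59% in GPR35-positive and 29.6 ± 1.17% in GPR35-negative libraries. Vegfb made up 20.3 ± 2.71% in GPR35-positive and 33.3 ± 2.24% in GPR35-negative libraries, and Vegfc 25.2 ± 1.92% in GPR35-positive and 34.5 ± 3.51% in GPR35-negative ones. The 2 ligands that bind FLT1 and not KDR, Pgf and Vegfb, thus moved in opposite directions.

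**Figure D2:**
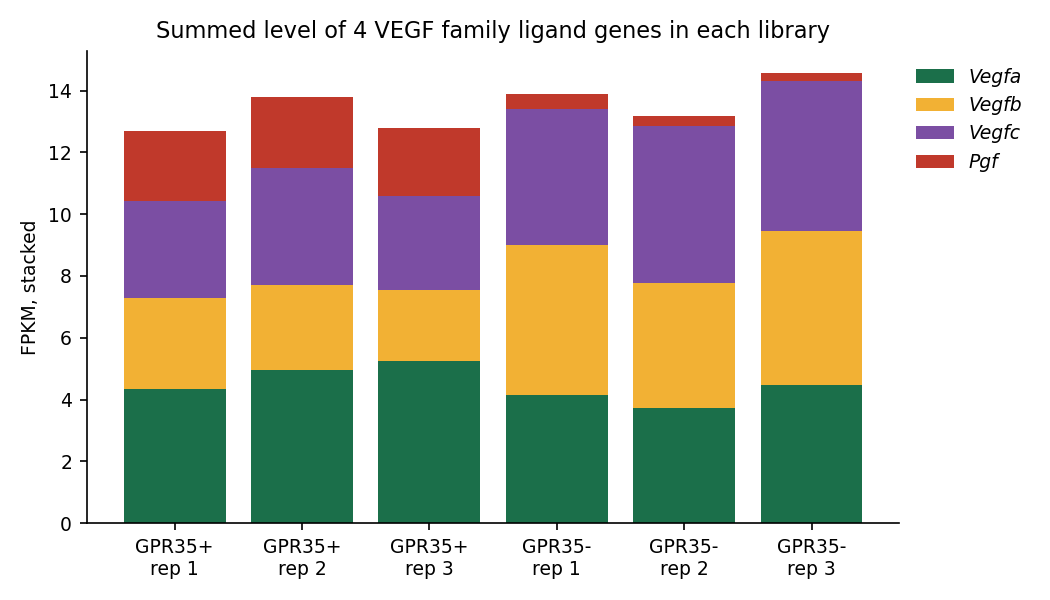
Stacked FPKM (y axis) of Vegfa, Vegfb, Vegfc and Pgf in each GPR35-positive (left 3 bars) and GPR35-negative (right 3 bars) library. Bar heights run from 12.7 to 13.8 FPKM in GPR35-positive and 13.2 to 14.6 FPKM in GPR35-negative libraries, while the Pgf segment is the larger in every GPR35-positive one.

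A ratio of 2 genes within a library does not depend on how the library was scaled. Vegfa over Vegfb was 1.48, 1.81 and 2.31 in GPR35-positive libraries, against 0.858, 0.923 and 0.895 in GPR35-negative ones. In FPKM, Vegfa was thus the higher of the pair in every GPR35-positive library and the lower in every GPR35-negative one. Vegfa over Vegfc was 1.39, 1.32 and 1.74 in GPR35-positive libraries, against 0.943, 0.738 and 0.920 in GPR35-negative ones, with the same change of order. Both ratios separated the groups fully, and each gave p = 0.1 in a two-sided exact permutation test, the smallest that 3 against 3 libraries allow (0.133 after Benjamini-Hochberg adjustment over 4 ratios).

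The balance of the 2 neuropilin genes also differed between the groups. Nrp1, a co-receptor for VEGFA and SEMA3A that myeloid cells carry too, was at 1.33, 1.46 and 1.68 FPKM in the GPR35-positive libraries, against 0.901, 0.995 and 0.721 FPKM in GPR35-negative ones. It was higher in every GPR35-positive library, with a log2 fold change of 0.41 (SE 0.09), at a limma adjusted p of 0.00214. Nrp2, a co-receptor for VEGFC and SEMA3F, was at 1.32, 1.48 and 1.45 FPKM in the GPR35-positive libraries, against 2.16, 2.21 and 2.04 FPKM in GPR35-negative ones. It fell by 0.38 on the log2 scale (SE 0.08), at a limma adjusted p of 0.00162, and its ratio of means was 0.663. Nrp2 over Nrp1 was 0.989, 1.01 and 0.865 in GPR35-positive libraries, against 2.40, 2.22 and 2.83 in GPR35-negative ones. The groups were apart, and the exact permutation p was again 0.1 (0.133 adjusted). Their RNA levels in GPR35-positive libraries overlapped, whereas Nrp2 was above Nrp1 in all 3 GPR35-negative libraries.

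**Figure D3:**
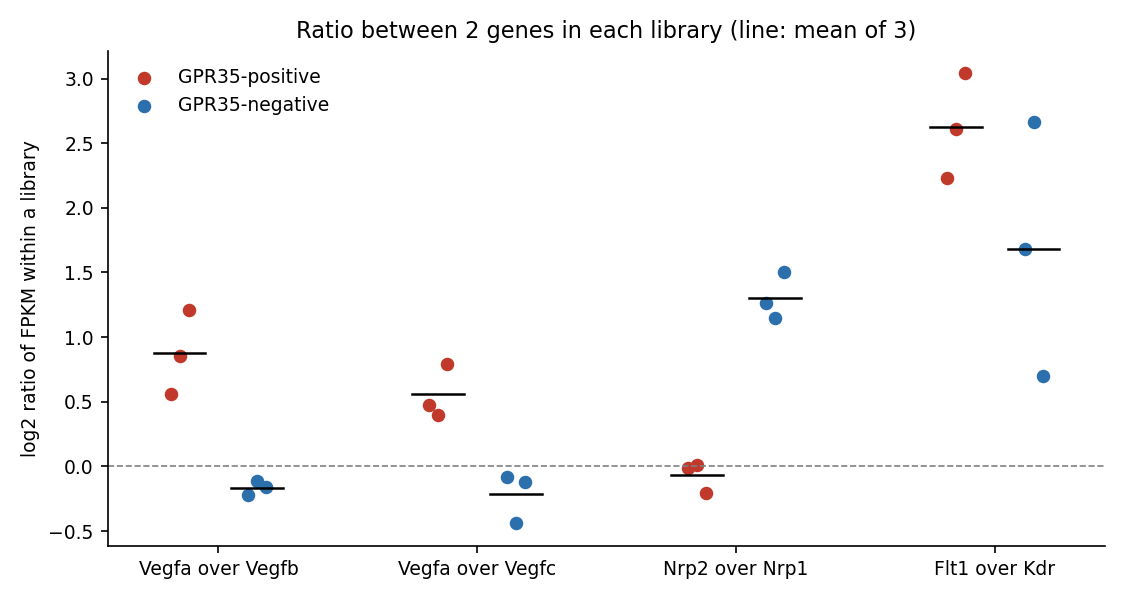
log2 ratio of the FPKM of 2 genes within a library (y axis) for 4 pairs, with GPR35-positive libraries in red at left and GPR35-negative libraries in blue at right of each pair; lines are means of 3. Vegfa over Vegfb is above 0 in each GPR35-positive and below 0 in each GPR35-negative library, and the groups overlap only for Flt1 over Kdr.

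Of 13 neuropilin partner genes, which are semaphorins, plexins and the adaptor gene Gipc1, 4 passed the filter, and 0 rose and 4 fell, where 45.5% of all genes tested fell. Plxna1 reached 1 FPKM only in GPR35-negative libraries and so passed the filter through the group in which it was high, which leaves 3 others. Sema3b was at 3.95 ± 0.625 FPKM in GPR35-positive and 6.84 ± 0.300 FPKM in GPR35-negative libraries, and Sema3c at 1.13 ± 0.162 FPKM in GPR35-positive and 2.02 ± 0.271 FPKM in GPR35-negative ones (SD, n = 3 each). Plxna1, a signalling partner of the neuropilins, and Gipc1, whose product binds the tail of NRP1, fell by 0.31 and 0.51 on the log2 scale (adjusted p = 0.00948 and 0.000365). The median of the 4 was −0.50, below that of all genes tested, −0.19. With median-of-ratios scaling 3 of the 4 fell, and Plxna1 did not pass (adjusted p = 0.0636).

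The tyrosine kinase receptor genes were scarce in both groups. Flt1 was at 0.666, 0.744 and 0.647 FPKM in the GPR35-positive libraries, against 0.103, 0.0830 and 0.0800 FPKM in GPR35-negative ones. All 3 GPR35-positive libraries were several times above the others, with 478 reads in total in the GPR35-positive libraries against 60 in the GPR35-negative ones. The ratio of reads scaled for depth was 7.68 (exact 95% interval 5.86 to 10.2, counting error only), and without a filter Flt1 rose with an adjusted p of 2.27e-05. Flt1 also gives a soluble form that binds ligand without signalling, and 1 value per gene cannot separate it from the membrane receptor.

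Kdr was at 0.142, 0.122 and 0.0786 FPKM in the GPR35-positive libraries, against 0.0321, 0.0131 and 0.0492 FPKM in GPR35-negative ones. These rest on 22, 18 and 13 reads in GPR35-positive and 5, 2 and 7 reads in GPR35-negative libraries, and the groups did not overlap. The ratio was 3.65, with an exact 95% counting interval of 1.997 to 7.13 (adjusted p = 0.0164 without a filter). Flt1 over Kdr was 4.68, 6.09 and 8.23 in GPR35-positive and 3.21, 6.35 and 1.62 in GPR35-negative libraries. Those ratios overlapped (exact permutation p = 0.3, and 0.3 adjusted over the 4 ratios).

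Endothelial cells are the usual source of both receptors. The 14 endothelial markers summed to 15.3 to 16.7 FPKM in GPR35-positive and 14.7 to 16.3 FPKM in GPR35-negative libraries. Of the 3 that passed the filter, Pecam1, which leukocytes also express, rose by 0.31 on the log2 scale, while Esam and Egfl7 fell by 0.29 and 0.57, Esam not passing with median-of-ratios scaling (adjusted p = 0.330). Most of that sum came from these 3 genes, and several of the low endothelial markers were higher in GPR35-positive libraries, as Flt1 and Kdr were. Stab2, a scavenger receptor gene of liver sinusoids, was at 0.539 ± 0.0129 FPKM in GPR35-positive and 0.0156 ± 0.0138 FPKM in GPR35-negative libraries (SD, n = 3 each). Vwf, the von Willebrand factor gene, was at 0.222 ± 0.0719 FPKM in GPR35-positive and 0.0222 ± 0.0120 FPKM in GPR35-negative libraries. Cdh5, the gene of the endothelial junction protein VE-cadherin, was at 0.0874 to 0.139 FPKM in GPR35-positive libraries and listed at 0 in all 3 GPR35-negative ones. Without a filter 7 of the 14 rose and 1 fell (17.4% and 22.1% of all genes), among the risers Mmrn2, at 0.850 ± 0.127 FPKM in GPR35-positive and 0.118 ± 0.0862 FPKM in GPR35-negative libraries (SD, n = 3 each). Monocytes and macrophages carry FLT1 too, and macrophage markers were 22.1 times as high in sum in GPR35-positive libraries. The part of either cell type in the rise of Flt1 was not tested.

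**Figure D4:**
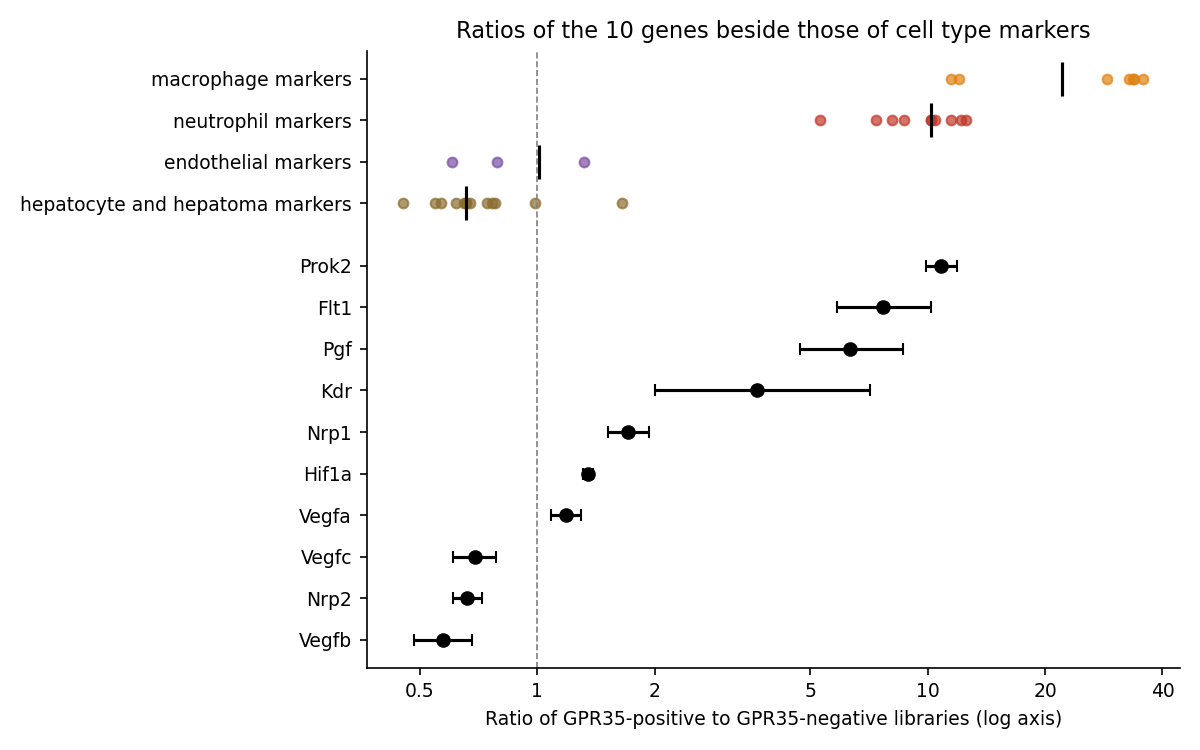
Ratio of GPR35-positive to GPR35-negative libraries (x axis, log scale). Black points are the 10 genes, as reads scaled for depth over 3 libraries a group with exact 95% counting intervals; coloured points are markers that passed the filter, as ratios of mean FPKM, and black ticks the ratio of each marker list's sum. Prok2, at 10.8 by reads, lies among neutrophil markers, and Vegfb, Nrp2 and Vegfc, at 0.573 to 0.691, lie among hepatocyte and hepatoma markers. The hepatocyte and hepatoma markers run from 0.454 to 1.65, a range that also holds Vegfa and Hif1a, at 1.18 and 1.35. The macrophage markers Adgre1, Csf1r and Mrc1 passed the filter through GPR35-positive libraries only.

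Hif1a, whose protein is controlled mainly by oxygen-dependent breakdown, was at 38.5, 39.8 and 39.0 FPKM in the GPR35-positive libraries, against 28.7, 30.97 and 27.0 FPKM in GPR35-negative ones. The groups were apart, and the log2 fold change was 0.42 (SE 0.07), at a limma adjusted p of 0.000522, and a ratio of means of 1.35 from 2509 to 4206 reads per library. Of 8 tested partners and regulators of HIF, 0 rose and 7 fell, where 23.3% of all genes tested rose and 45.5% fell, and the median was −0.31 (all genes tested −0.19). This rested on the scaling: with median-of-ratios scaling 1 rose and 3 fell, around a median of −0.14. Epas1, which encodes HIF-2alpha, fell by 0.74 (adjusted p = 0.000736), at 3.76 ± 0.595 FPKM in GPR35-positive and 6.95 ± 1.25 FPKM in GPR35-negative libraries (SD, n = 3 each). The prolyl hydroxylase genes Egln1, Egln2 and Egln3, which mark HIF for breakdown, fell by 0.34, 0.48 and 0.18. With median-of-ratios scaling Egln1 and Egln3 did not pass (adjusted p = 0.117 and 0.828), and Egln3 turned to 0.02. Vhl, part of the ligase that breaks HIF down, was at 18.3 ± 1.40 FPKM in GPR35-positive and 17.8 ± 0.139 FPKM in GPR35-negative libraries (SD, n = 3 each). It did not pass, and rose only with median-of-ratios scaling (0.22, adjusted p = 0.0349).

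Of 18 HIF target genes, 5 rose and 8 fell, shares near those of all genes tested, of which 23.3% rose and 45.5% fell. Their median was −0.16, beside −0.19 over all genes. With median-of-ratios scaling 8 rose and 4 fell, around a median of 0.04. Adm, the vasodilator gene adrenomedullin, rose by 1.36 (adjusted p = 1.33e-06), at 2.52 ± 0.138 FPKM in GPR35-positive and 0.379 ± 0.201 FPKM in GPR35-negative libraries (SD, n = 3 each). It reached 1 FPKM only in GPR35-positive libraries and so passed the filter through the group in which it was high. The glycolytic regulator Pfkfb3 and the disulfide oxidase gene Ero1l rose by 0.89 and 0.52, and Ankrd37 and Mxi1 by 0.28 each. Ndrg1, P4ha2, Ldha and Pdk1 fell by 0.94, 0.54, 0.47 and 0.46, and the glucose transporter gene Slc2a1 did not pass (adjusted p = 0.160).

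**Figure D5:**
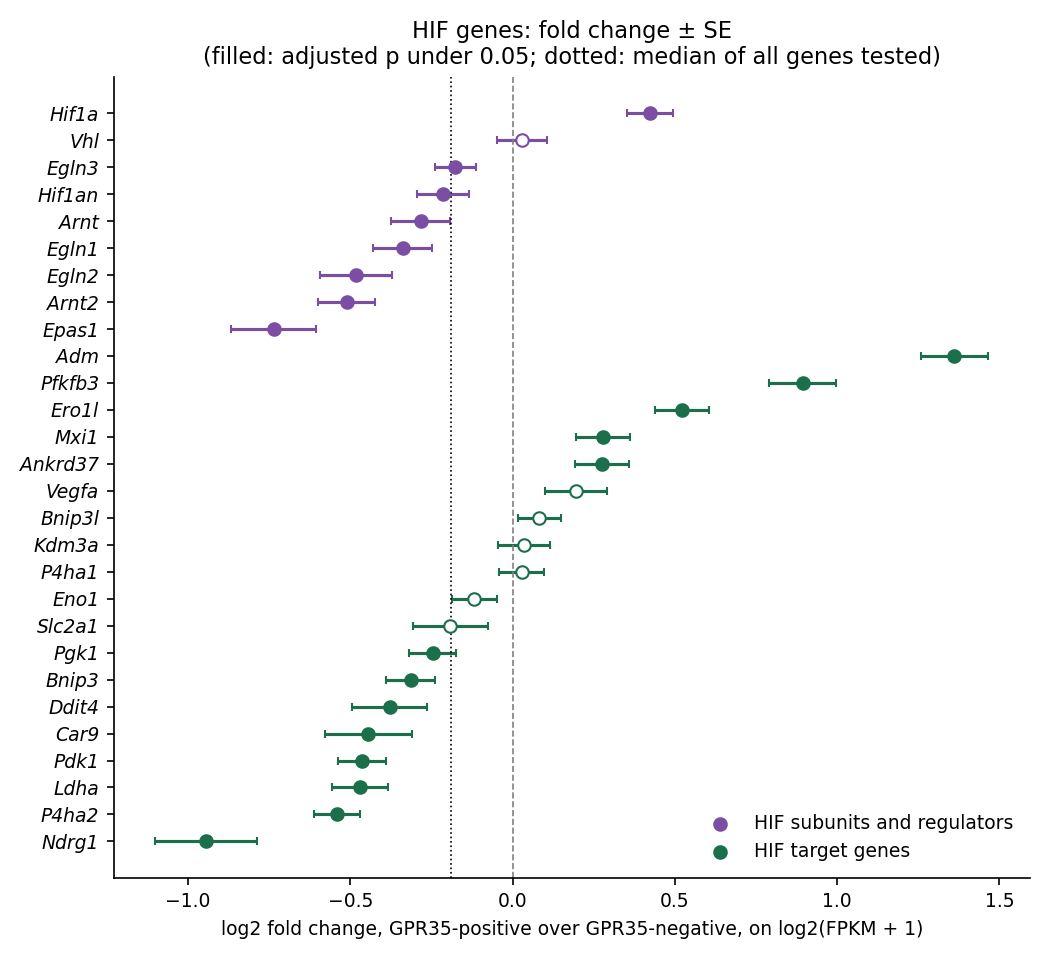
log2 fold change of GPR35-positive over GPR35-negative libraries on the log2(FPKM + 1) scale (x axis) for tested HIF subunit and regulator genes (purple) and HIF target genes (green), with Hif1a and Vegfa added; bars are SE and filled points have an adjusted p under 0.05. Hif1a at 0.42 is the only purple point that passed above 0 (Vhl joined it with median-of-ratios scaling), and green points lie on both sides of the dotted median of all genes tested, −0.19.

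Within each group the members kept a wide range of levels per length. In GPR35-positive libraries the order of mean FPKM was Prok2, Hif1a, Vegfa, Vegfc, Vegfb, Pgf, Nrp1, Nrp2, Flt1 and Kdr. Only the neighbours Vegfb and Pgf, and Nrp1 and Nrp2, overlapped there. In GPR35-negative libraries Hif1a came first, and Prok2, Vegfc, Vegfb and Vegfa followed with each neighbour overlapping the next. Then came Nrp2, Nrp1, Pgf, Flt1 and Kdr, with no overlap. Prok2 was above 95.04% of the genes in the table in GPR35-positive and 73.7% in GPR35-negative libraries, and Kdr above 39.5% in GPR35-positive and 34.6% in GPR35-negative ones.

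Genes with profiles most like those of Prok2 and Vegfa were taken by the smallest root mean square difference of centred log2(FPKM + 1) values over the 6 libraries, among 9813 genes. For Prok2 they were the myeloid receptor genes Cd300a and Cd300lf, Slamf8, the oxidized LDL receptor gene Olr1 and Gde1, at differences of 0.0636 to 0.0700. Cd300lf was at 96.9 FPKM in GPR35-positive and 9.17 FPKM in GPR35-negative libraries on average. Slamf8 was at 13.1 FPKM in GPR35-positive and 0.457 FPKM in GPR35-negative libraries on average, a ratio of 28.7. The others had ratios of 9.71 to 11.6, beside 10.9 for Prok2. Slamf8 was under 1 FPKM in every GPR35-negative library, where the log2(FPKM + 1) scale understates its change. It passed the filter only through the GPR35-positive libraries. For Vegfa they were Cttnbp2nl, Zcchc8, Srd5a3, Isy1 and the cytokine gene Mif, at 0.0388 to 0.0484. With 2 groups of 3, such likeness follows mostly the difference between the groups.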

How the data were processed

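RNA of 3 GPR35-positive and 3 GPR35-negative libraries, grouped and numbered by their titles, was analysed. Per the labels' protocols, total RNA came from a Trizol extraction and the NEBNext Ultra II kit was used for the libraries. The values are FPKM that the authors deposited as 1 table. Among the tools, the submitters' processing notes list DESeq 1.38.3, HTSeq 0.9.1, HISAT2 2.1.0 and fastp 0.22.0, giving none a role, and a human build, while the IDs are mouse Ensembl IDs. Annotation and strand setting are not given in the sources used here. In GENCODE M21 (GRCm38), 21851 of 21959 IDs had an entry. With its exon lengths 97.7% of values above 0 were whole reads within 0.02, which gave the reads per library. All 6 value columns were used, and libraries within a group differed beyond what read sampling gives (mean chi-square per gene 4.82 to 19.7).

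Genes with at least 1 FPKM in 3 libraries were tested with limma-trend (limma 3.58.1 in R 4.3.3). It ran on log2(FPKM + 1) and was two-sided, with Benjamini-Hochberg adjustment over all genes tested, and called at 0.05. This scale understates the change of low genes. Adjusted p-values are limma's unless an exact permutation test is named. The method was run on simulated reads in which few genes changed, as many up as down. Most genes tested were called here, so that run does not bear on the error rate in these data. Of the exons of Hif1a, 5.6% overlap an antisense gene not used here, so unstranded reads there could belong to either gene. A protein-coding gene on the strand of Hif1a shares 2.5% of its exons and was listed at 0 in every library. Of the exons of Nrp1, 0.8% overlap a microRNA gene on the same strand, which is not in the table. The members, the gene lists, the rule for named genes and the 4 ratios were chosen with earlier results of these data known. The text names the members, genes of the 11 pathway and 9 marker lists, Gpr35, and the 5 genes closest in profile to Prok2 and to Vegfa. Promoter sequences are RefSeq's for GRCm38.p6, with a window for each of the 10 members; the motifs, the windows printed and the count of 8 matches were chosen after the data were seen. Alternatives were another pseudocount, other filters, other scalings, limma-voom on recovered reads, a replicate block and leaving out each library, and, chosen after seeing the data, no filter together with median-of-ratios scaling or with voom. Tables were handled with Python 3.11.15, numpy 2.4.6, pandas 2.3.3 and scipy 1.17.1, and figures drawn with matplotlib 3.10.9.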

Additional observations from a re-analysis of the deposited data

How the results depend on the processing

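Prok2, Pgf, Hif1a, Nrp1, Nrp2 and Vegfb kept their direction and their call under every alternative that could test them; Pgf and Nrp1 could not be tested with 5 FPKM in 3 libraries or without any GPR35-positive library, where they fall under the filter, and Vegfb and Nrp2 could not with 5 FPKM. Vegfa passed with median-of-ratios scaling, with or without a filter, and without GPR35-positive replicate 1. Vegfc, at −0.27, missed the threshold when median-of-ratios scaling was combined with no filter (adjusted p = 0.0726). Of the members, 4 were higher and 3 lower; with a filter of 5 FPKM 2 were higher and 0 lower, since fewer could be tested. With median-of-ratios scaling and no filter 7 were higher, since Flt1 and Kdr were tested and Vegfa passed. Leaving out 1 library gave 2 to 4 members higher, 2 of them without GPR35-positive replicate 2 or 3, and 3 lower each time. Of all genes, 2342 were higher and 4575 lower, so 33.9% of calls were higher; with median-of-ratios scaling 2392 were lower and 55.2% of calls were higher. With no filter 44.0% of calls were higher, and 3440 genes. With 5 FPKM 1434 were higher. With median-of-ratios scaling and no filter 4050 were higher and 2051 lower, 66.4% higher, and with voom and no filter 3764 were higher, 45.1% of calls. The replicate block gave 4 members higher and 3 lower, and 2365 and 4633 genes; same-numbered libraries correlated at −0.00177, 0.400 and −0.0642 in their deviations from group means, so the numbers were not taken to pair them. No ratio within a library changed sign; with 0.1 FPKM added to both genes, Flt1 over Kdr gave an exact permutation p of 0.1. With median-of-ratios scaling the HIF regulators, HIF targets, angiopoietin genes and neuropilin partners lost falls, as given beside them. Kdr rests on 67 reads in all, so its ratio is imprecise, and its interval covers counting error only, not the spread between libraries.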

Other observations

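Other angiogenic factors and inhibitors were measured in the same libraries. Of 10 other angiogenic factor genes, 5 were tested, and 0 rose and 3 fell, where 23.3% of all genes tested rose and 45.5% fell. Pdgfa, a growth factor for mesenchymal cells, was at 25.6 ± 0.784 FPKM in GPR35-positive and 44.3 ± 0.700 FPKM in GPR35-negative libraries (SD, n = 3 each), and Fgf1 and Pdgfb fell by 0.62 and 0.33 on the log2 scale. Of the 2 angiopoietin genes tested, Angpt1 fell by 0.33 and Angpt2 by 0.31 (limma adjusted p = 0.0147 and 0.0195). Under scaling by the median of ratios their adjusted p was 0.126 and 0.269 and that of Pdgfb 0.0905, so these calls ended. Hgf, Cxcl12 and Apln were under the filter and rose without it, Hgf at 0.728 ± 0.108 FPKM in GPR35-positive and 0.0778 ± 0.0399 FPKM in GPR35-negative libraries (SD, n = 3 each). Among the inhibitor genes, Thbs2 and Serpinf1 rose by 0.56 and 0.96, Col18a1, whose product is cleaved to endostatin, and Timp3 fell by 1.03 and 0.47, and Thbs1 did not pass, at 157 ± 20.3 FPKM in GPR35-positive and 168 ± 12.7 FPKM in GPR35-negative libraries.

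Genes that act below VEGF receptors or on Vegfa mRNA also split. Of 10 VEGF receptor signalling genes tested, 4 rose and 4 fell, where 23.3% of all genes tested rose and 45.5% fell. The kinase gene Mapkapk2 rose by 1.31, at 27.9 ± 0.714 FPKM in GPR35-positive and 10.7 ± 1.07 FPKM in GPR35-negative libraries (SD, n = 3 each). The kinase gene Prkcb, at 1.12 ± 0.0224 FPKM in GPR35-positive and 0.124 ± 0.0514 FPKM in GPR35-negative libraries, rose by 0.91 on the log2(FPKM + 1) scale, while its ratio of means was 8.97. It passed the filter only through the GPR35-positive libraries, as Thbs2 did. Of the other 9 signalling genes tested, 3 rose and 4 fell. Risers also included Hspb1 and Akt1, by 1.01 and 0.25 (Akt1 not passing when mitochondrial genes and the 50 highest genes were left out of the scaling, adjusted p = 0.0602), while Plcg1, Ptk2, Prkca and Shb fell by 0.74, 0.65, 0.61 and 0.59. Zfp36, which encodes an mRNA-destabilizing protein that binds Vegfa mRNA, rose by 0.82, at 57.5 ± 1.56 FPKM in GPR35-positive and 32.1 ± 0.835 FPKM in GPR35-negative libraries (SD, n = 3 each). Zfp36l1 and Elavl1, an mRNA-stabilizing protein's gene, fell by 0.49 and 0.52, Hnrnpl fell by 0.25 (adjusted p = 0.467 under scaling by the median of ratios), and Zfp36l2 did not pass (adjusted p = 0.481).

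Of the remaining marker lists, 6 of 7 tested fibroblast and stellate cell markers rose and 1 fell. Of all genes tested, 23.3% rose and 45.5% fell. When mitochondrial genes and the 50 highest genes were left out of the scaling 5 rose, and Dcn had an adjusted p of 0.0576. Rgs5 reached 1 FPKM only in GPR35-positive libraries and so passed the filter through the group in which it was high. Of the other 6, 5 rose and 1 fell. The sum of all 11 listed markers was 1.92 times as high in GPR35-positive libraries. All 4 tested mast cell markers rose, and the sums of all 6 listed had a ratio of 2.93. The 3 tested T cell markers did not pass, and the sums of all 6 listed had a ratio of 0.969. Of 5 dendritic cell markers 0 passed the filter, at sums of 1.65 to 1.98 FPKM in GPR35-positive and 0.199 to 0.409 FPKM in GPR35-negative libraries. Of the lymphatic endothelial markers Pdpn, which macrophages also express, rose by 2.58 and Prox1, which hepatocytes also express, fell by 0.85, while Lyve1 was at 0.126 to 0.243 FPKM in GPR35-positive and 0 to 0.0993 FPKM in GPR35-negative libraries.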
